A study of Mus musculus with 6 samples.

Results

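Toll-like receptor mRNAs were followed in BV2, an immortalised mouse microglial line, as a list of 10 genes given by name: the surface receptors Tlr1, Tlr2, Tlr4 and Tlr6, the endosomal receptors Tlr3, Tlr7, Tlr9 and Tlr13, the co-receptor Cd14 and the adaptor Myd88. Of the 10, 9 were matched by symbol among 17872 genes in the count table, and all 9 passed the filter on low counts. The mRNA of Myd88 was not analysed here. The libraries fell into 2 groups of 3, wild-type BV2 cells and BV2 cells in which Tfam, the protein that packages and transcribes mitochondrial DNA, had been targeted with CRISPR-Cas9. Per the labels' protocols, edited cells were kept in puromycin at 2 µg/mL and no sample received a further treatment. The labels leave unclear whether the controls had puromycin too, what else they carried, and whether the edited line was clonal or pooled. They do not name the replicates as separate cultures either, so p-values here cover only the spread among these libraries, which may be technical.

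Toll-like receptors are membrane proteins that bind conserved parts of microbes and, in some cases, molecules released from damaged cells. Those on the cell surface bind mainly lipids, lipoproteins and proteins, and those in endosomes bind nucleic acids after the trafficking protein UNC93B1 has delivered them there. All of them except TLR3, which signals through TRIF (Ticam1), use the adaptor MyD88, which assembles IRAK kinases and passes the signal through the ubiquitin ligase TRAF6 to NF-kB. Microglia are the brain cells in which these receptors have been studied most.

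Total counts per library ran from 13850691 to 28418133. Tfam mRNA did not fall in labelled knockouts (38.2 ± 1.01 CPM in controls and 42.3 ± 1.15 CPM, SD, n = 3 each; adjusted p = 0.193, edgeR's quasi-likelihood test) and was called higher when totals set the scale (log2 fold change 0.24; adjusted p = 0.0403). Genes of the mitochondrial genome took 3.52% to 4.31% of counts in controls and 1.37% to 1.42% in labelled knockouts. Every direction below is between controls and libraries labelled knockout. CPM are counts per 1e+06 counts, scaled by edgeR's TMM factors. Of 14 microglia and macrophage markers, 12 were matched and 11 reached 1 CPM, with a summed level of 3799 to 4429 CPM in controls and 2814 to 3122 CPM in labelled knockouts. Most of the matched markers fell, and Adgre1 (F4/80) was the only one called higher, from 265 ± 29.7 to 406 ± 7.87 CPM (adjusted p = 1.5e-05, edgeR). Csf1r, the receptor for the macrophage growth factor, fell by 1.46 on the log2 scale (adjusted p = 8.89e-11, edgeR). On that scale Cx3cr1 (-1.15), Fcgr3 (-0.91), Tyrobp (-0.83), Trem2 (-0.83), Fcer1g (-0.68), Spi1 (-0.39) and Cd68 (-0.33) were called lower too. Ptprc (CD45) did not pass (263 ± 12.8 and 252 ± 11.3 CPM, adjusted p = 0.528, edgeR), nor did Aif1 (adjusted p = 0.151, edgeR). The microglial marker Tmem119 was near 0 (11, 8 and 9 counts, and 8, 0 and 0 counts), and the fractalkine receptor Cx3cr1 was at 1.82 ± 0.242 and 0.794 ± 0.438 CPM. Summed markers of B cells, T cells and astrocytes stayed at or under 1.53 CPM in every library. The list for plasmacytoid dendritic cells, which carry Tlr7 and Tlr9, summed to 231 to 280 CPM in controls and 255 to 295 CPM in labelled knockouts, nearly all of it from Bst2 and Tcf4, which are not specific to those cells. Other lists summed to 0.991 to 25.5 CPM in controls and 0.236 to 14.1 CPM in labelled knockouts, and the part of these markers in the results was not tested.

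The receptors did not move as one family. Tlr2, Tlr9 and Cd14 rose in the labelled knockout libraries, Tlr13 and Tlr7 fell, Tlr1 fell by a small amount, and Tlr3, Tlr4 and Tlr6 did not pass the test. Counting the 9 measured members, 3 were called higher and 3 lower at an adjusted p below 0.05. Over all 13403 genes tested, 44.2% were called, 21.3% higher and 22.9% lower, so a share of 66.7% from 9 genes is a description of these genes. Higher genes made up 48.2% of all calls, and 61.8% with scaling to library totals, under which the median log2 fold change of all genes was 0.10. The members' median log2 fold change was -0.03 (all tested genes, 0.00). Control and labelled knockout values did not overlap for 6 of the 9, against 52.9% of all tested genes.

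**Figure D1:**
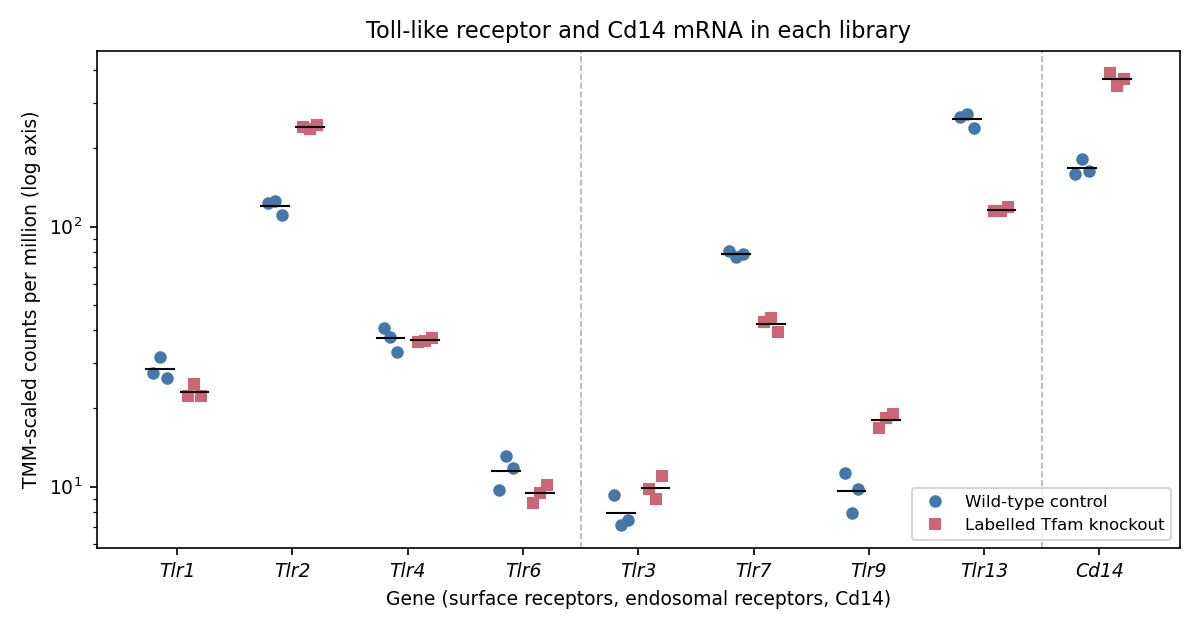
Level of each member in each library in CPM on a log axis; circles are the 3 wild-type controls, squares the 3 labelled knockouts and bars the group means. Tlr2, Tlr9 and Cd14 lie higher in every labelled knockout than in any control, and Tlr7, Tlr13 and, by a small margin, Tlr1 lie lower.

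Among the surface receptors, Tlr2 was the one that rose. Tlr2 pairs with Tlr1 or Tlr6 to bind bacterial lipoproteins. Its level was 124, 125 and 111 CPM in controls 1 to 3 and 241, 237 and 245 CPM in labelled knockouts 1 to 3. All 3 labelled knockouts were close together and far above the highest control. This is a 2.01-fold rise (log2 fold change 1.01 ± 0.0731, SE; adjusted p = 9.05e-09, edgeR), larger in size than the change of all but 8.98% of tested genes. The call held under every alternative run. The sequence upstream of Tlr2 is shown because this gene had the largest rise among the receptors and 2 separate stretches of its promoter window match the consensus of NF-kB, the transcription factor that Toll-like receptor signals activate. The stretch runs from 250 to 160 bases before the RefSeq start of transcription, with the overlapping kappaB matches on both strands in capitals (chr3:83841768-83841858, minus strand, GRCm38.p6, RefSeq).
Tlr2: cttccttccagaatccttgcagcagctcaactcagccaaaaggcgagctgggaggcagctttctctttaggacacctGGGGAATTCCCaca
The shown stretch stops there because a Tlr2 transcript in GENCODE M21 starts at the next base. The second match, GGGACATCCC, begins 8 bases before the RefSeq start. It therefore lies downstream of the earlier GENCODE start, and only the first match is upstream of both. In windows of 300 bases around all RefSeq starts (250 before to 50 after), 8.46% of 32851 held a kappaB match on either strand and 0.521% held 2 or more separate ones. Among the other members with a window, Tlr3, which was not called, held 1 kappaB match (GGGAGTTTCC, beginning 211 bases before its start). Tlr9, which rose, held none, nor did Tlr1, Tlr6, Tlr13 or Myd88. Tlr2 was shown with its matches known, so these shares are a description, and the promoter of Cd14, which rose too, was not searched. Such matches are letters in a sequence and were not tested as binding sites.

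The partners of Tlr2 did not rise with it. Tlr1, which with Tlr2 binds triacylated lipoproteins, stood at 27.3, 31.5 and 26.2 CPM in controls and 22.3, 24.8 and 22.4 CPM in labelled knockouts. The groups lay just apart. The fall was 0.29 on the log2 scale (SE 0.105; adjusted p = 0.0343, edgeR), and the call was lost when control 1, control 2, labelled knockout 1 or labelled knockout 3 was left out (largest adjusted p 0.195), when scaling by totals (-0.19, adjusted p = 0.168) and in DESeq2 (adjusted p = 0.0517). Tlr6, which with Tlr2 binds diacylated lipoproteins, was at 9.71, 13.1 and 11.7 CPM in controls and at 8.64, 9.42 and 10.2 CPM in labelled knockouts. These groups overlapped, and the log2 fold change of -0.28 ± 0.151 (SE) did not pass (adjusted p = 0.14, edgeR). It was -0.17 without control 2 (adjusted p = 0.462) and -0.39 without control 1 (adjusted p = 0.0549). Tlr1 and Tlr6 transcripts align at 94.9% identity over 1076 bases in GENCODE M21, and the treatment of reads with more than one match is not known here, so the split of counts between this pair is uncertain. Per kilobase of transcript, Tlr2 was 4.09 ± 0.273 times as abundant as Tlr1 in controls and 10.1 ± 0.728 times in labelled knockouts (SD, n = 3 each). Against Tlr6 the ratio was 7.23 ± 1.29 and 17.6 ± 1.36.

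The lipopolysaccharide receptor Tlr4 and its co-receptor Cd14 differed from each other. Cd14 hands lipopolysaccharide to the complex of Tlr4 and MD-2 (Ly96) and also assists Tlr2 and several endosomal receptors. Cd14 was at 159, 182 and 164 CPM in controls and at 389, 347 and 369 CPM in labelled knockouts. Every labelled knockout was above every control, a 2.19-fold rise (log2 fold change 1.13 ± 0.0793, SE; adjusted p = 5.89e-09, edgeR) that held under every alternative. Tlr4 was at 40.9, 37.7 and 32.9 CPM in controls and at 35.9, 36.5 and 37.5 CPM in labelled knockouts. All 3 labelled knockouts fell inside the range of the controls (log2 fold change -0.03 ± 0.0982, SE; adjusted p = 0.839, edgeR), and the sign turned with library totals (0.07). Per kilobase, Cd14 was 8.26 ± 1.06 times as abundant as Tlr4 in controls and 18.2 ± 1.25 times in labelled knockouts. Ly96 was at 17.4, 18.8 and 15.4 CPM in controls and 12.3, 14.8 and 14.5 CPM in labelled knockouts, without overlap and just short of the threshold (-0.32 ± 0.127, SE; adjusted p = 0.0501, edgeR). It passed without control 3 (adjusted p = 0.0441) or labelled knockout 2 (adjusted p = 0.0423), with limma-voom (adjusted p = 0.046) and with a stricter filter (adjusted p = 0.0426).

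Among the endosomal receptors, Tlr13 and Tlr7, the 2 most abundant in controls, fell, and Tlr9 rose. Tlr13 detects bacterial ribosomal RNA and exists in mice but not in humans. It was at 265, 271 and 239 CPM in controls and at 115, 115 and 119 CPM in labelled knockouts. The lowest control was above the highest labelled knockout by more than the whole range of either group (log2 fold change -1.15 ± 0.0736, SE; adjusted p = 1.74e-09, edgeR). Tlr7, a receptor for single-stranded RNA, was at 80.7, 76.4 and 78.5 CPM in controls and at 43.1, 44.5 and 39.4 CPM in labelled knockouts. The groups were again well apart (-0.89 ± 0.0813, SE; adjusted p = 1.51e-07, edgeR). Tlr9, a receptor for unmethylated CpG DNA, went the other way, with 11.3, 7.95 and 9.77 CPM in controls and 16.8, 18.4 and 19.0 CPM in labelled knockouts. Each labelled knockout exceeded each control, a 1.85-fold rise (0.89 ± 0.14, SE; adjusted p = 6.68e-05, edgeR). The calls of Tlr13 and Tlr7 held under every alternative, and that of Tlr9 under every one except a test against a 1.5-fold change (adjusted p = 0.0664, glmTreat). Tlr9 mRNA was 0.122 ± 0.0178 of Tlr7 per kilobase in controls and 0.427 ± 0.0472 in labelled knockouts.

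Tlr3, the receptor for double-stranded RNA, was at 9.31, 7.10 and 7.43 CPM in controls and at 9.77, 8.96 and 11.0 CPM in labelled knockouts. The groups overlapped through control 1, and the log2 fold change of 0.30 ± 0.159 (SE) did not pass (adjusted p = 0.139, edgeR). It passed without control 1 (0.46; adjusted p = 0.0429) and in the authors' log2 table (0.40; adjusted p = 0.0452, limma). An antisense gene, Gm45542, shares 381 of the 5207 exon bases of Tlr3 in GENCODE M21, and the library kit does not mark strand, so reads of the pair cannot be told apart there. No other measured member shared exon bases with another gene in that annotation.

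Sequences upstream of Tlr9 and Tlr13 are shown because these endosomal receptors moved in opposite directions. Both hold the letters GAGGAA, the core of sites for PU.1, a transcription factor of the macrophage lineage, which are in capitals. Tlr9 (chr9:106222348-106222597, plus strand) is given from 250 bases to 1 base before its RefSeq start and Tlr13 (chrX:106143025-106143203, plus strand) from 250 to 72 bases before it, both in GRCm38.p6. The Tlr13 stretch stops there because a Tlr13 transcript in GENCODE M21 starts at the next base.
Tlr9: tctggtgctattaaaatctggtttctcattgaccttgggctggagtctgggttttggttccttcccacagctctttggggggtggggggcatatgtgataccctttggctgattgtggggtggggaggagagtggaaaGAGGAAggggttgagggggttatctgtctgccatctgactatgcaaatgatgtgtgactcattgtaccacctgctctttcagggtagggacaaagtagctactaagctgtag
Tlr13: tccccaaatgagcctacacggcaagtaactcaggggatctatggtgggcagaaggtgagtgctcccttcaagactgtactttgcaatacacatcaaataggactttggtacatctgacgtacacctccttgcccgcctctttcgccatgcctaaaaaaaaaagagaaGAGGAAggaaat
Tlr9 held a second one (TTCCTC on the shown strand) beginning 13 bases after the start. The core was found on either strand in 28.3% of all RefSeq promoter windows of 300 bases, so its presence does not set these genes apart. Tlr1, which fell by a small amount, held it too, beginning 23 bases before a RefSeq start. Spi1, the gene of PU.1, was lower in labelled knockouts (269 ± 16.7 and 205 ± 24.6 CPM, adjusted p = 0.00149, edgeR). A link between PU.1 and these genes was not tested. Neither the Tlr9 nor the Tlr13 window held a kappaB match. Tlr9 also held 1 match to the AP-1 motif TGANTCA, beginning 58 bases before the start, which 7.81% of windows hold on either strand (the motif reads the same on both). Promoter windows were sought for 9 members (all but Cd14) and found for 7, without Tlr4 and Tlr7.

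**Figure D2:**
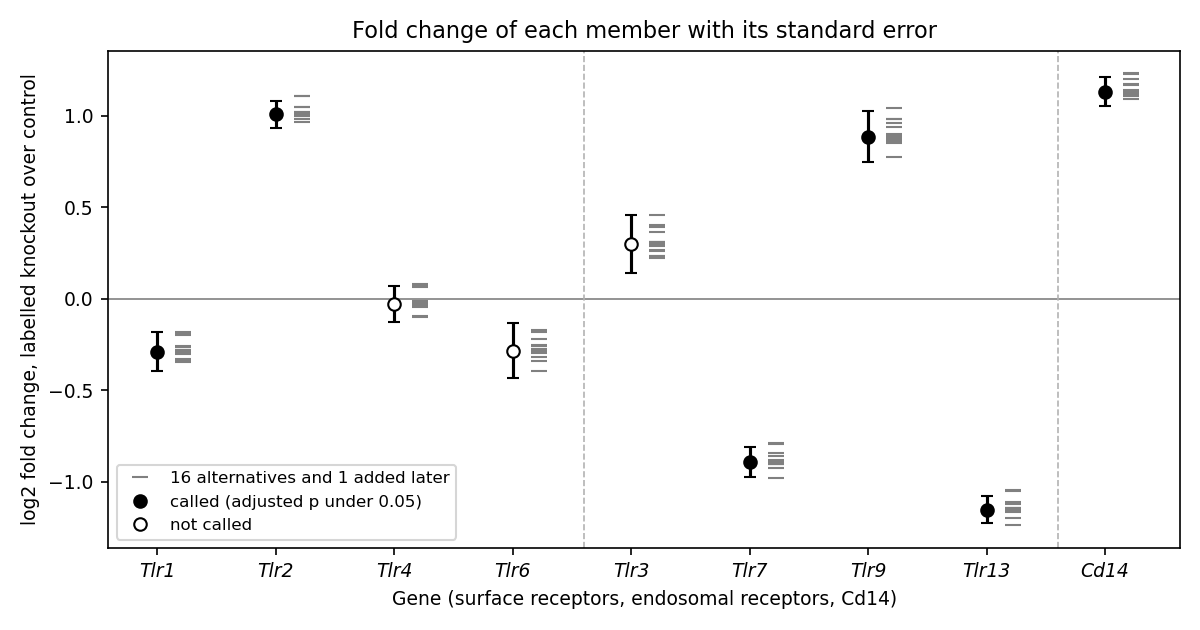
Log2 fold change of each member, labelled knockout over control, with its standard error from edgeR (filled, called; open, not called) and beside it the values under the 17 alternatives (grey dashes). Tlr2, Tlr9 and Cd14 stay above 0 and Tlr7 and Tlr13 below 0 throughout, while Tlr4 lies on both sides.

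Set side by side, the surface and endosomal classes changed order. Levels of different genes were compared per kilobase, as CPM divided by the median length of a gene's protein-coding transcripts. In controls the endosomal receptors together stood at 95.7, 94.0 and 87.5 CPM per kilobase and the surface receptors at 68.9, 71.4 and 62.5. In labelled knockouts the endosomal sum was 49.6, 50.3 and 50.7 and the surface sum 104, 104 and 107. The surface sum was below the endosomal sum in all 3 controls and above it in all 3 labelled knockouts, and the ratio went from 0.731 ± 0.0247 to 2.09 ± 0.0182 (SD, n = 3 each). These sums get no p-value because the members were chosen with earlier results known, and in bulk RNA fewer cells of a kind and less RNA per cell cannot be told apart.

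A single gene carried most of each class. Tlr2 made up 58.8% ± 0.723 of the surface sum in controls and 76.3% ± 0.682 in labelled knockouts. Tlr13 made up 68.9% ± 1.88 of the endosomal sum in controls and 57.1% ± 0.622 in labelled knockouts. Without Tlr2 the surface sum was 27.9 ± 2.05 against 24.9 ± 0.786, and without Tlr13 the endosomal sum was 28.7 ± 1.56 against 21.5 ± 0.285. The surface class without Tlr2 therefore did not show the increase. By class, 1 of 4 surface receptors was called higher and 1 lower, and 1 of 4 endosomal receptors higher and 2 lower. Of all tested genes, 21.3% were called higher and 22.9% lower. The median log2 fold changes were -0.16 for surface and -0.30 for endosomal receptors. With 4 genes on each side and both directions in each, the classes were not separated gene by gene.

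**Figure D3:**
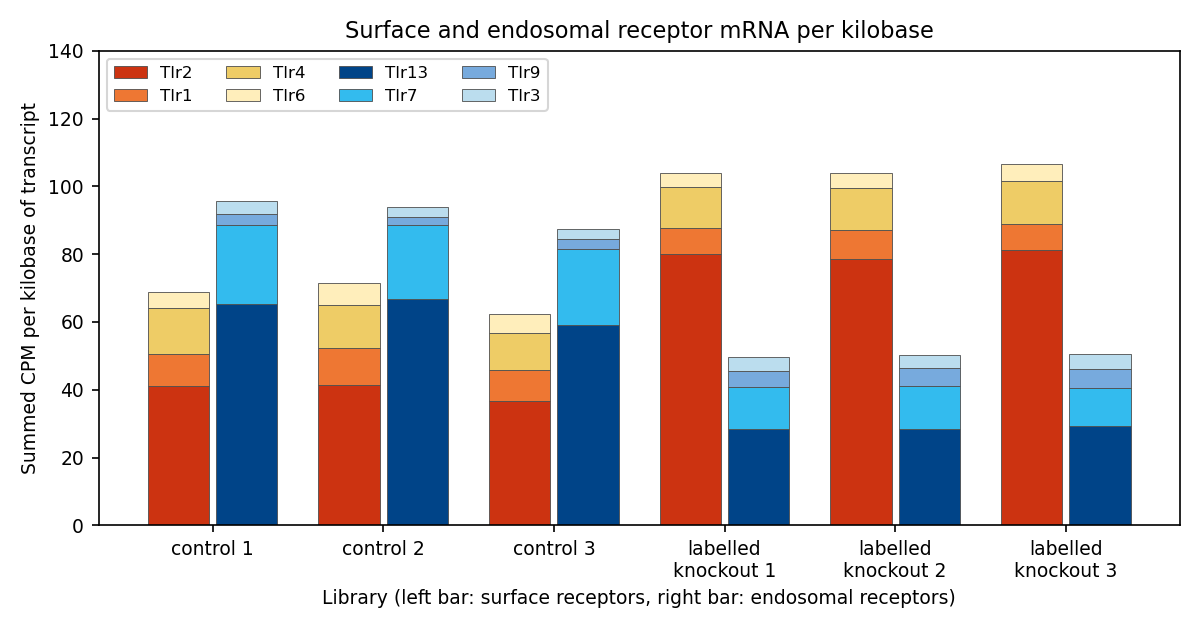
Stacked level of the 4 surface receptors (left bar, warm colours) and the 4 endosomal receptors (right bar, blue) in each library, in CPM per kilobase of transcript. The endosomal bar is the taller in each control and the surface bar in each labelled knockout, with Tlr2 and Tlr13 as the largest segments.

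The order of the levels per kilobase changed accordingly. In controls it ran from Cd14 (103 ± 7.4) through Tlr13 (63.7 ± 4.13), Tlr2 (39.7 ± 2.64), Tlr7 (22.6 ± 0.617), Tlr4 (12.5 ± 1.36), Tlr1 (9.75 ± 0.964) and Tlr6 (5.59 ± 0.829) to Tlr3 (3.29 ± 0.494) and Tlr9 (2.78 ± 0.478), and the values of the last pair overlapped. In labelled knockouts Tlr2 (80.0) stood above Tlr13 (28.7), Tlr4 (12.3) and Tlr7 (12.2) overlapped, Tlr1 (7.98) followed, and Tlr9 (5.20) overlapped Tlr6 (4.57), which overlapped Tlr3 (4.10). The lower ranks depend on transcript length. With the longest transcript of each gene, the control mean of Tlr1 (9.36) stood above that of Tlr4 (9.12), though their values overlapped. With the longest transcripts Tlr9 (2.78) also stood above Tlr3 (1.80) in controls, and the values of this pair did not overlap.

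Both other receptors of the family that could be measured fell. Tlr5, the flagellin receptor, is scarce in these cells, with 36, 17 and 17 counts in controls and 5, 3 and 2 in labelled knockouts. All 3 labelled knockouts were below all controls (1.20 ± 0.0861 and 0.183 ± 0.0491 CPM; log2 fold change -2.64 ± 0.494, SE; adjusted p = 0.000343, edgeR). In the authors' log2 table, where 8 is added before the log, the difference was -1.33 (adjusted p = 0.00105, limma). Cd180, a relative of Tlr4 that dampens its signals in myeloid cells, was at 117, 118 and 125 CPM in controls and 45.1, 48.2 and 47.9 CPM in labelled knockouts (-1.35; adjusted p = 2.54e-10, edgeR). Ly86, which partners Cd180, fell too (-0.38). Tlr8, the other receptor for single-stranded RNA, was not analysed here.

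Across 7 lists of pathway genes, 25 of 74 tested genes were called higher, 24 lower and 25 were not called (median log2 fold change -0.06). The called share is 66.2% (all tested genes, 44.2%). Among co-receptors and helpers of ligand delivery, 2 of 7 rose and 4 fell. The scavenger receptor Cd36 (0.43) and the nuclear alarmin Hmgb1 (0.28) rose, while the Fc receptor Fcgr4 (-0.97), the lipoprotein receptor Scarb1 (-0.49), Ly86 and the lipid raft protein Rftn1 (-0.28) fell. The calls were lost for Hmgb1 without labelled knockout 3 (adjusted p = 0.0715) and for Rftn1 when control 2, control 3, labelled knockout 1 or labelled knockout 3 was left out (largest adjusted p 0.158) or totals set the scale (adjusted p = 0.144).

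Genes listed for receptor trafficking and endosomal processing moved both ways. Of 18 tested, 4 rose and 7 fell, a called share of 61.1% (all tested genes, 44.2%). Unc93b1, which carries the nucleic acid receptors to endosomes, was at 218, 231 and 238 CPM in controls and 255, 238 and 257 CPM in labelled knockouts, and did not pass (0.13; adjusted p = 0.163, edgeR); it was called higher when scaled by totals alone (0.23; adjusted p = 0.0148) and when length and GC content were modelled as offsets (0.25; adjusted p = 0.00315). Slc15a3, an endolysosomal peptide transporter, rose from 155 ± 3.45 to 419 ± 8.54 CPM (2.70-fold; adjusted p = 7.79e-11, edgeR). The receptor chaperone Hsp90b1 (gp96, 0.75), the GTPase Arf6 (0.46) and the protease Ctsb (0.23) rose as well. Among the genes that fell, the nuclease Pld4, which degrades single-stranded nucleic acids that could serve as ligands, went from 235 ± 0.346 to 125 ± 5.77 CPM (adjusted p = 1.94e-08, edgeR). Rab7b, which directs receptors to lysosomes, fell by 0.82 on the log2 scale and the receptor-cleaving protease Lgmn by 0.52. The Ctsb call was lost when control 3, labelled knockout 1 or labelled knockout 3 was left out (largest adjusted p 0.155) and with the offsets (0.20; adjusted p = 0.0591).

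In the relay below the receptors, 1 of 4 tested adaptors was called, and kinases and ligases were called in both directions. Over all tested genes 44.2% were called, 21.3% higher and 22.9% lower, so counts in this paragraph describe the listed genes only. Ticam2, which bridges Tlr4 to TRIF, rose (0.56), a call lost when control 2 or labelled knockout 1 was left out (largest adjusted p 0.0755). Tirap, which bridges Tlr2 and Tlr4 to MyD88, was at 10.2 ± 1.09 and 9.41 ± 0.564 CPM, and Ticam1 was at 39.1 ± 2.04 and 37.8 ± 2.41 CPM; neither passed (adjusted p = 0.486 and 0.704, edgeR), and the sign of Ticam1 (-0.05) turned with library totals (0.05). Of 20 relay genes, 8 rose and 6 fell. Traf6 itself fell, from 41.7, 44.9 and 43.9 CPM in controls to 13.0, 16.9 and 12.3 CPM in labelled knockouts. Its highest labelled knockout was far under its lowest control (-1.62 ± 0.117, SE; adjusted p = 9.05e-09, edgeR). Irak4 (-0.32) and Irak1 (-0.25), kinases that MyD88 recruits, and the kinase Map3k8 (-0.48) fell, while Irak2 (0.60), Traf3 (0.44), Tab3 (0.41) and Ikbke, a kinase upstream of interferon genes (1.53), rose. Scaled by totals, Irak4 (adjusted p = 0.118), Irak1 (adjusted p = 0.108) and Map3k8 (adjusted p = 0.0815) no longer passed, and Irak1 did not pass with the length and GC offsets either (-0.14; adjusted p = 0.0828). Leaving out 1 library also ended the calls of Irak4 (control 2, control 3 or labelled knockout 1; largest adjusted p 0.0874) and Map3k8 (control 1 or labelled knockout 1; largest adjusted p 0.128). With library totals 3 relay genes were lower. All 4 tested interferon regulatory factors were called: Irf1 (0.78) and Irf7 (0.63) rose and Irf3 (-0.45) and Irf5 (-0.35) fell, the last pair by less with the offsets (-0.29 and -0.22; adjusted p = 0.0277 and 0.0218).

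Among genes listed as negative regulators, 8 of 19 rose and 3 fell, a called share of 57.9% (all tested genes, 44.2%). Whether each of them, Nfkbiz included, restrains the pathway in these cells was not tested. The NF-kB inhibitor Nfkbia rose from 89.3 ± 3.66 to 334 ± 25.2 CPM (3.75-fold; adjusted p = 6.31e-12, edgeR). Irak3, an IRAK family member that restrains MyD88 signalling, was at 8.71, 7.76 and 10.5 CPM in controls and 23.8, 28.7 and 30.6 CPM in labelled knockouts (3.09-fold; adjusted p = 5.08e-08, edgeR). Every labelled knockout lay above every control. The RNase Zc3h12a (1.58), the atypical IkB protein Nfkbiz (1.15) and the ubiquitin-editing enzyme Tnfaip3 (1.05) also rose. The 3 that fell were Tnip3 (-1.43), a partner of Tnfaip3, the inhibitory receptor Sigirr (-0.80) and the phosphatase Dusp1 (-0.80).

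**Figure D4:**
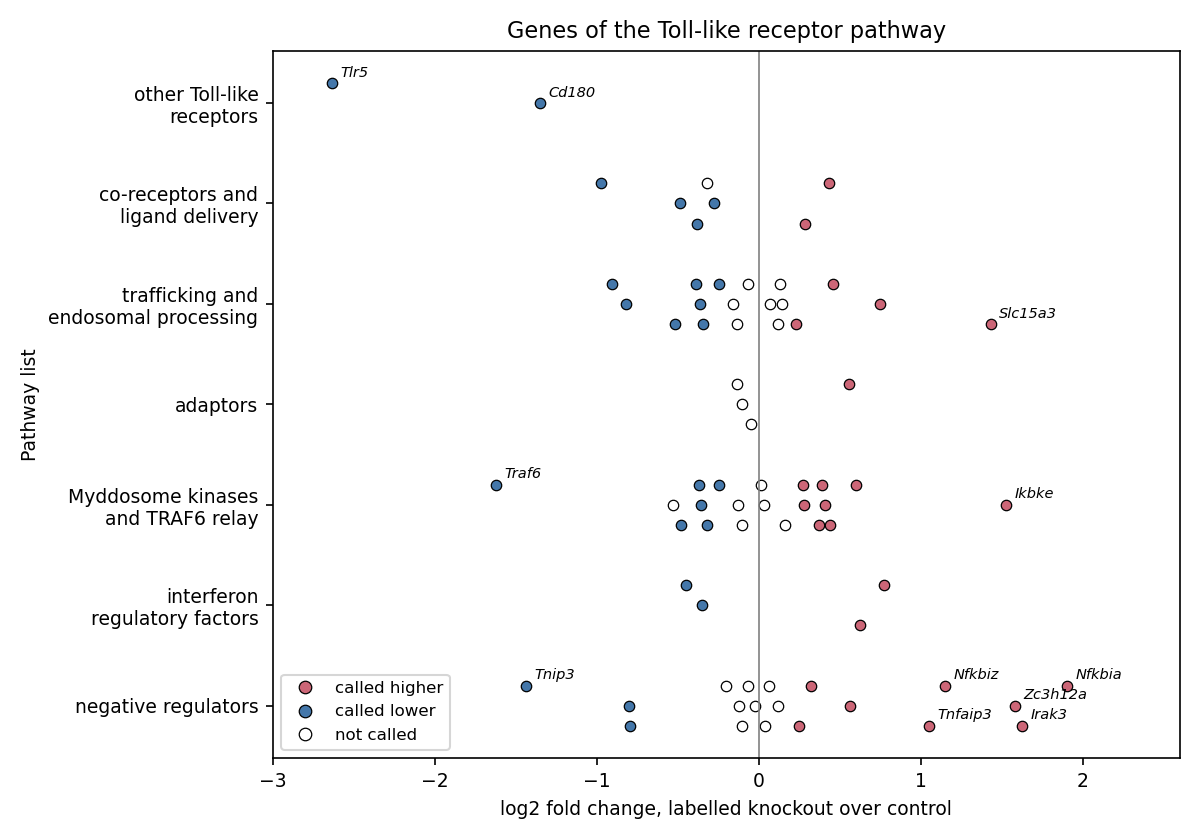
Log2 fold change, labelled knockout over control, of each tested gene in the 7 pathway lists (red, called higher; blue, called lower; white, not called); genes that changed by more than 1 are named. Nfkbia, Irak3, Zc3h12a, Ikbke and Slc15a3 lie farthest to the right, and Tlr5, Traf6, Tnip3 and Cd180 farthest to the left.

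For Tlr2, Tlr7, Tlr9 and Tlr13, which changed most among the 8 listed receptors, the genes most like them were sought by the root mean square difference between centred log2 CPM profiles over the 6 libraries, among 9452 genes whose mean was 5 CPM or more. Nearest to Tlr2 were Relb (0.0412), Nsl1 (0.0463) and Top2a (0.0525). Nearest to Tlr9 were Urb1 (0.0327), Stil (0.0511) and Wdr62 (0.0671). Nearest to Tlr13 were Vps53 (0.0490), Kdr (0.0561) and Spink5 (0.0618), and nearest to Tlr7 were Cd109 (0.0171), Ift81 (0.0322) and Dock8 (0.0413). With 6 libraries in 2 groups the likeness reflects mainly the size of the group difference.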

How the data were processed

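RNA was measured in 6 poly(A) libraries. The submitters' processing notes name GRCm39 as the build and, as tools, featureCounts 2.0.0, SAMtools 1.9, HISAT2 2.1.0 and bcl2fastq 2.17. The deposited counts are whole numbers per gene, not normalized by the authors. The authors' second table holds log2 values, which equal log2 of the count scaled to a common total plus 8. The test was edgeR's quasi-likelihood F test (version 4.0.16, R 4.3.3), with filterByExpr, TMM factors and no covariates, adjusted by Benjamini-Hochberg over 13403 genes and called below 0.05. A standard error is the fold change on the log2 scale divided by the square root of F, and signed numbers in brackets are log2 fold changes. The edgeR step was first run on simulated data with far fewer changed genes than were called here. That run does not vouch for these calls. Alternatives used DESeq2 1.42.0, limma 3.58.1 (voom, and the authors' log2 table), other scalings and filters, a replicate block, glmTreat at 1.5-fold and each library left out; offsets for transcript length and GC content were chosen after seeing the data. Lengths and overlaps came from GENCODE M21 and promoters from RefSeq, both on GRCm38, another build than the authors'.

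Members and lists were chosen with earlier results of these data known. Named genes were the members, the 6 called genes per list that changed most (mean of 1 CPM or more), and direct partners of the members (Ly96, Unc93b1, Tirap, Ticam1, Ticam2, Irak4, Traf6, Tlr5, Tlr8). Ctsb, Irak1, Sigirr and Dusp1 fell outside this rule and were chosen after their values were seen. Predicted gene models were skipped in the search for like profiles.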

Additional observations from a re-analysis of the deposited data

How the results depend on the processing

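Tlr2, Tlr7, Tlr13 and Cd14 kept their calls under all 17 alternatives and Tlr9 under all but the test against a 1.5-fold change. Among the members 3 to 4 were called higher and 2 to 3 lower with a library left out, and among pathway genes 22 to 25 higher and 21 to 24 lower; over all genes 4847 to 5743 were called, against 5926 with all libraries. Tested against a 1.5-fold change, a stricter question by construction, 1094 genes were called, with 7 pathway genes higher and 7 lower (25 and 24 in the main test). The sign of Tlr4 turned with library totals (0.070), with the authors' log2 table (0.082) and without control 1 (0.064), and that of Ticam1 with library totals (0.052), the log2 table (0.052) and the length and GC offsets (0.030); the cause was not tested. Per kilobase, the longest transcripts gave surface sums of 61.4 (controls) and 99.2 (labelled knockouts), an endosomal sum of 47.0 in labelled knockouts and ratios of 0.694 and 2.11, and library totals gave 108 and 51.9 for the labelled knockout sums. The authors' log2 table, which is scaled by totals, changed the calls of the same named genes as library totals did, and that of Tlr3 as well. With the replicate number as a block 5255 genes were called, and 3 members higher and 3 lower as without it; it ended the calls of Ctsb (adjusted p = 0.124) and Map3k8 (adjusted p = 0.053) and no other call among the named genes. Same-numbered libraries did not deviate together (correlations -0.10, -0.11 and 0.04), and not every library correlated best with its own number. Counting limits Tlr5 most, with 2 to 5 counts in labelled knockouts, and a filter of 5 CPM in 3 libraries left it untested.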
